A study of Mus musculus with 17 samples.

Results

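Cholesterol handling in sorted mouse antibody-secreting cells (ASCs) was examined through 8 genes: Stard5, Hmgcs1, Sqle, Lss, Fdft1, Insig1, Srebf2 and Abca1. They were put together with the difference between ages in these same arrays already known, so the age differences of the 8 genes are given as a description, without a test. A probe belonged to a member if its symbol in the platform annotation was that gene. By this rule 6 of the 8 genes, out of 12989 named genes on the array, had a probe, and these 6 genes had 15 of the 45281 probes. Hmgcs1 and Fdft1 had no probe under their symbols and were not measured here. Of the 15 probes, 7 passed the filter on dim or flat probes, which 11073 of all probes passed.

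The ASCs came from the bone marrow of the hind legs of mice from a commercial breeder, either aged (over 17 months) or young (6 to 8 weeks). No strain, sex or treatment is given in the labels, and they separate the groups by age alone. The methods describe ASCs as live cells negative for CD3, CD14 and IgD and positive for CD138 (syndecan-1), the usual surface marker of plasma cells. There were 6 aged and 9 young samples, and young samples 3 and 4 were each run on a repeat array and averaged. A sample could be 1 mouse or, where cells were few, a pool of mice, and the labels do not say which samples were pools. The methods name more aged mice than there are aged samples and as many young mice as young samples, so pooling and age cannot be told apart here. The spread between samples is therefore that of these preparations, and their number limits the precision of every difference below.

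Cells control their cholesterol mainly through SREBP-2, the transcription factor that Srebf2 encodes. When the membrane of the endoplasmic reticulum is rich in sterol, the protein encoded by Insig1 holds SREBP-2 and its escort SCAP there, and when sterol falls the precursor moves to the Golgi, is cleaved, and switches on genes of cholesterol synthesis and uptake, Insig1 and Srebf2 themselves among them. Hmgcs1 makes HMG-CoA at the head of the pathway, Fdft1 makes squalene, Sqle oxidizes squalene and Lss closes the ring to lanosterol. Abca1, a target of the oxysterol-sensing LXR receptors, exports cholesterol from the cell to apolipoprotein A-I, and Stard5 encodes a cytosolic protein with a START domain that binds sterols and carries them between membranes. Plasma cells are known for an expanded endoplasmic reticulum, the compartment in which SREBP-2, SCAP and INSIG1 reside.

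The sequences just upstream of Stard5, Srebf2 and Insig1 are shown because Stard5 had the largest age difference among the member probes and because Srebf2 and Insig1 formed the pair with the highest correlation between samples of 1 age. Each is the 250 bases before the gene's start from RefSeq (GRCm38.p6), written 5′ to 3′ on the strand of the gene, which is the plus strand for all 3. Capitals mark matches on either strand to TCACNCCA, the core of a sterol regulatory element at which SREBPs bind, or to CCAAT, the box bound by NF-Y, a partner of SREBPs at many sterol genes. On the other strand this box reads ATTGG.
Stard5, chr7:83631767-83632016: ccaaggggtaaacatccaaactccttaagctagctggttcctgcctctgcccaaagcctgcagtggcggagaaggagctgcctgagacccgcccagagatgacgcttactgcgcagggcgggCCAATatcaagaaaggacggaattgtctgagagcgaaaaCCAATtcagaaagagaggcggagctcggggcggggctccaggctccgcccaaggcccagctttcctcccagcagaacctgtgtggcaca
Srebf2, chr15:82147019-82147268: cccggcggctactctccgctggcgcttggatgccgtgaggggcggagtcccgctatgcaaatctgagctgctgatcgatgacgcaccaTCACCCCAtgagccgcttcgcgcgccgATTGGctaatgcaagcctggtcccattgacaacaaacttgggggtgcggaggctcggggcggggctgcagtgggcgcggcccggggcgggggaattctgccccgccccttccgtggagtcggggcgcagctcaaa
Insig1, chr5:28071162-28071411: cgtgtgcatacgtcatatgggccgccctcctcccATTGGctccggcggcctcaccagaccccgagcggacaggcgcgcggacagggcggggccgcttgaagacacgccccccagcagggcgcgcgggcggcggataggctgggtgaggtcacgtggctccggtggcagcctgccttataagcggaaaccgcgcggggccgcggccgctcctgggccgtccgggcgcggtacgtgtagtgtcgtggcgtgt
TCACNCCA was found 162 bases before the start of Srebf2, and no match lay in the Stard5 and Insig1 windows. Among the 6 members with a window, 2 held this motif, Srebf2 and Hmgcs1, against 3.67% of all 32851 windows of the same length. CCAAT lay 128 and 89 bases before the start of Stard5, 135 bases before that of Srebf2 and 216 bases before that of Insig1. It was found in 5 of the 6 member windows and in 33.8% of all windows, and in the 3 windows shown it did not overlap TCACNCCA. These matches describe the letters of the windows and were not tested as binding sites.

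Between 10401 and 17120 probes were detected in aged samples and between 8998 and 15864 in young samples, detection meaning a detection p under 0.05. For young 3 and young 4 the smaller p of the 2 arrays was used. The single arrays detected 12133 and 9554 probes in young 3 and 13803 and 11131 in young 4. Aged 2 and young 2 stood furthest from their own groups, with mean correlations of 0.800 and 0.784 with the other samples of their age, whereas the other samples had 0.823 to 0.882. All 10 tested plasma cell markers had a higher mean in aged ASCs and 2, Xbp1 and Mzb1, rose (limma, a linear model over all tested probes with Benjamini-Hochberg adjustment, adjusted p = 0.0499 and 0.0152), where the methods' t-test gave 1 call in the list after adjustment. Of all tested probes 1.06% rose and 0.325% fell. At an unadjusted p under 0.05 (limma) 8 of the 10 plasma cell markers were higher and 0 lower in aged ASCs. Of all tested probes 8.81% were higher and 5.27% lower at that level. The median log2 difference of the 10 plasma cell markers was 0.83. The summed signal of the plasma cell list was 12415 to 17689 in aged and 9101 to 12399.5 in young samples. Sdc1, the gene of CD138, was detected in 5 of 6 aged and 1 of 9 young samples and was not tested. Of 5 tested precursor B cell markers 4 fell, the surrogate light chain genes Igll1 and Vpreb1 among them (limma, adjusted p = 0.00665 to 0.0312), and the summed signal of the list was 1623 to 2358 in aged and 2996 to 6856 in young samples. No marker of mature B cells (1 tested), macrophages and monocytes (8), neutrophils (11), basophils and mast cells (6), T and NK cells (2) or erythroid cells (3) passed limma's test at an adjusted p of 0.05. At an unadjusted p under 0.05, 1 macrophage and monocyte, 1 neutrophil and 3 basophil and mast cell markers were lower in aged ASCs, and the methods' t-test gave 0 calls in these lists after adjustment. The macrophage and monocyte list, with 4 of 8 tested markers higher in mean, summed to 5081 to 9304 in aged and 4624 to 8450 in young samples. The mean was lower in aged ASCs for 10 of 11 neutrophil markers, whose summed signal was 23952 to 51269 (median 41424) in aged and 25081 to 60292 (median 51884) in young samples. It was also lower for all 6 tested basophil and mast cell markers, whose sum was 6103 to 14039 (median 9047) in aged and 7114 to 17656 (median 15675) in young samples. In these bulk samples fewer cells of a type and less RNA per cell cannot be told apart, and the part of these marker differences in the results below was not tested.

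Stard5 was the member with the largest difference between ages. At its brighter probe the log2 signal, the log2 of the quantile-normalized bead intensity, was 9.74, 10.20, 9.98, 9.79, 10.30 and 9.55 in aged samples 1 to 6. In young samples it was 8.30, 8.74, 8.20, 8.51, 8.73, 8.52, 8.86, 8.99 and 8.94. The lowest aged sample lay above the highest young one, so the groups did not overlap, and the probe was detected in every sample. The mean was 9.93 ± 0.29 in aged and 8.65 ± 0.28 in young ASCs (SD, n = 6 and n = 9), a log2 difference of 1.28 with a standard error of 0.19 and a 95% interval of 0.89 to 1.67, or a 2.43-fold higher signal. Leaving out any 1 sample gave differences of 1.21 to 1.36. With background correction the difference was 2.23 on the log2 scale.

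This was the 1 of the 7 tested member probes that limma called over all tested probes at an adjusted p of 0.05, and it was also the 1 member probe whose groups did not overlap. Of all tested probes 1.38% were called, 1.06% with a higher and 0.325% with a lower signal in aged ASCs, and 0.443% had every aged sample above and 0.217% every aged sample below every young one. Since this contrast was used to choose the genes, nothing is read from the member count. The plasma cell marker sums given above were also higher in aged samples, and the precursor B cell sums lower.

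The second Stard5 probe, listed for the same transcript record, did not show this difference. It was detected in 2 of 6 aged and 2 of 9 young samples and did not pass the filter. Its log2 signal averaged 8.12 ± 0.28 in aged and 8.12 ± 0.42 in young ASCs, a difference of 0.00 with a 95% interval of -0.36 to 0.37. Young 6 alone reached 9.14 there, against 8.27 for the next young sample, while at the brighter probe young 6 had 8.52. The aged minus young difference of Stard5 thus rested on 1 probe. The repeat arrays of young 3 and young 4 give a measure of technical spread at that probe: it read 8.46 and 7.94 on the arrays of young 3 and 8.78 and 8.24 on those of young 4. These gaps of 0.52 and 0.53 were smaller than the difference between ages and larger than the median absolute gap over all tested probes, 0.263 for young 3 and 0.288 for young 4. Il16, which encodes a cytokine precursor and lies next to Stard5 in the RefSeq gene order, had an age difference of -0.36 at its tested probe (limma, adjusted p = 0.518).

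**Figure D1:**
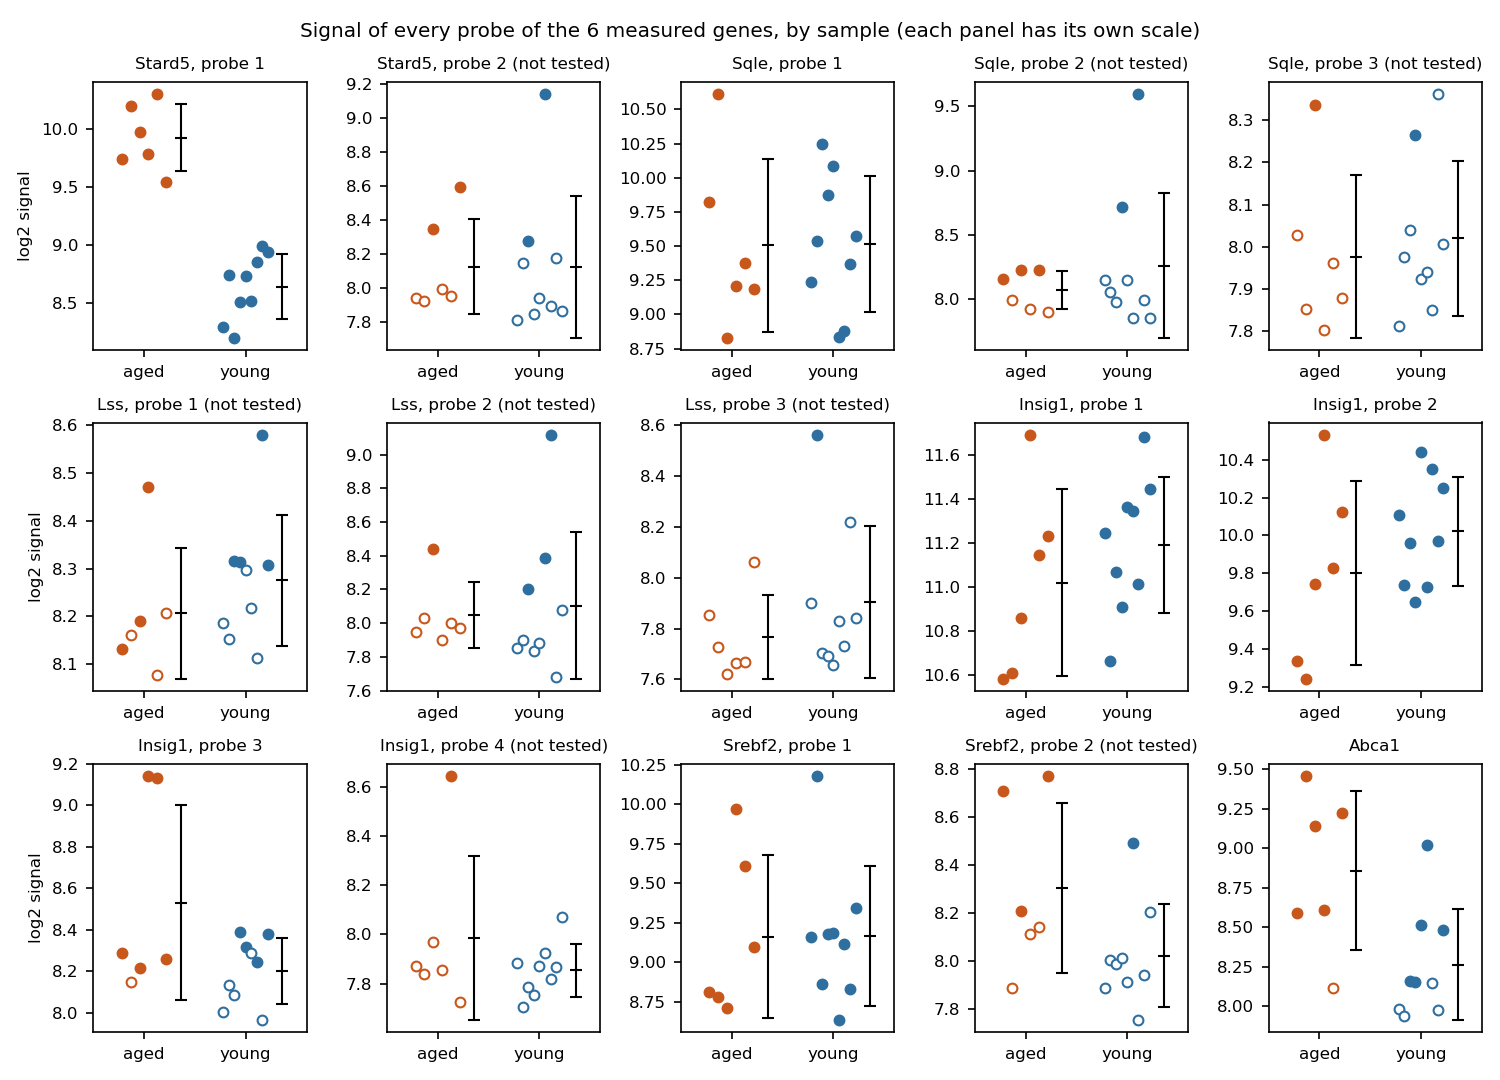
Log2 signal of each of the 15 probes of the 6 measured genes (y axis, own scale per panel) in 6 aged samples on the left and 9 young samples on the right of each panel. Filled points were detected and open points were not, and black bars give the mean ± SD. The aged and young points separate at Stard5 probe 1 (lowest aged sample 9.55, highest young sample 8.99) and overlap in every other panel.

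Abca1, the efflux pump, had the second largest age difference among the tested member probes. Its 1 probe read 8.59, 9.46, 9.14, 8.61, 8.12 and 9.22 in aged samples 1 to 6. In young samples the lowest, median and highest values were 7.94, 8.15 and 9.02. Young 6 had the highest young value, and 5 of the 6 aged samples lay above the young median, so the groups overlapped. The mean was 8.86 ± 0.50 in aged and 8.26 ± 0.35 in young ASCs, a difference of 0.59 with a standard error of 0.21 and a 95% interval of 0.16 to 1.02, or 1.51-fold. Abca1 was detected in 5 of 6 aged and 5 of 9 young samples so that part of its values lay at background in both groups. Leaving out single samples gave 0.47 to 0.74, and background correction gave 1.33.

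Srebf2 itself did not differ in mean at its brighter probe, which is listed under a cDNA clone record. That probe read 8.81, 8.78, 8.71, 9.97, 9.61 and 9.09 in aged samples 1 to 6, and in young samples the lowest, median and highest values were 8.63, 9.16 and 10.18. Aged 4 and aged 5 were high and the other aged samples lay within the young range below them, while young 2, a sample that stood apart across all probes, was the highest of all. The means were 9.16 ± 0.52 in aged and 9.16 ± 0.44 in young ASCs, with a difference of -0.00 and a 95% interval of -0.52 to 0.51. This interval does not exclude a shift of about the size measured for Insig1 in either direction, and leaving out single samples moved the difference between -0.16 and 0.12. The repeat arrays of this probe differed by 0.64 in young 3 and 0.98 in young 4, more than the SD between samples of either age. At the second Srebf2 probe, listed under the RefSeq transcript and detected in 3 of 6 aged and 1 of 9 young samples, the mean was 8.30 ± 0.35 in aged and 8.02 ± 0.21 in young ASCs, a difference of 0.28 (95% interval 0.00 to 0.56) that background correction set at 0.65. The Srebf2 probes therefore gave differences of unequal size, and the second did not pass the filter.

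Insig1, the gene of the sterol-dependent retention protein and an SREBP target, had 4 probes listed for 1 transcript, of which 3 were tested. The brightest read 10.58, 10.61, 10.86, 11.69, 11.15 and 11.24 in aged samples 1 to 6, and its lowest, median and highest young values were 10.66, 11.25 and 11.68. The second read 9.33, 9.24, 9.74, 10.53, 9.83 and 10.12 in the aged samples, and its young values ran between 9.65 and 10.44. At both probes aged 4 was the highest sample of either age and aged 1 and aged 2 were the lowest, so the aged samples spread over the whole young range and beyond it. The brightest probe averaged 11.02 ± 0.42 in aged and 11.19 ± 0.31 in young ASCs, a difference of -0.17 (SE 0.20, 95% interval -0.59 to 0.25) whose sign turned to 0.02 when arrays were scaled to their 75th percentile. The second averaged 9.80 ± 0.49 in aged and 10.02 ± 0.29 in young ASCs, a difference of -0.22 (SE 0.22, 95% interval -0.67 to 0.23). Leaving out single samples gave -0.31 (without aged 4) to -0.08 (without aged 1) at the brightest probe, where it was -0.09 without aged 2 and -0.11 without young 8. At the second it gave -0.37 (without aged 4) to -0.11 (without aged 2), and -0.13 without aged 1.

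The dimmer Insig1 probes leaned the other way. The third averaged 8.53 ± 0.47 in aged and 8.20 ± 0.16 in young ASCs, a difference of 0.33 (95% interval -0.00 to 0.66) that was 0.75 after background correction and 0.21 without aged 4 or without aged 5. Aged 4 and aged 5 stood out there with 9.14 and 9.13, while the other aged samples had 8.15 to 8.29, within the young range of 7.97 to 8.39. The third probe was detected in 5 of 6 aged and 4 of 9 young samples. The fourth was detected in 1 aged and 0 young samples, with a difference of 0.13 that was -0.00 without aged 5. Across its probes Insig1 thus gave age differences of both signs, and the 95% interval of each included 0.

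Among the synthesis enzymes, Sqle and Lss had probes. Sqle, which catalyses the first oxygen-dependent step of the pathway, read 9.82, 10.62, 8.83, 9.21, 9.38 and 9.18 in aged samples 1 to 6 at its brightest probe, and 8.84, 9.53 and 10.25 as the lowest, median and highest young values. Aged 2, a sample that stood apart across all probes, was the highest and aged 3 the lowest of all 15 samples. The means were 9.51 ± 0.63 in aged and 9.51 ± 0.49 in young ASCs, a difference of -0.01 (SE 0.27, 95% interval -0.58 to 0.56) that was -0.23 without aged 2 and 0.13 without aged 3. The 2 arrays of young 3 and of young 4 differed by 0.19 and 0.16 at this probe, gaps smaller than the SD between samples of either age. The other 2 Sqle probes did not pass the filter, with detection in 3 of 6 aged and 2 of 9 young samples at one and in 1 aged and 1 young sample at the other. Their differences were -0.19 and -0.04, and without young 7 that of the first was -0.02.

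Lss, the oxidosqualene cyclase, had 3 probes, none of which was detected in enough samples to be tested. The brightest was detected in 3 of 6 aged and 4 of 9 young samples and averaged 8.21 ± 0.14 in aged and 8.28 ± 0.14 in young ASCs, a difference of -0.07 (95% interval -0.24 to 0.10). The others were detected in 1 of 6 aged and 3 of 9 young samples and in 0 of 6 aged and 1 of 9 young samples, with differences of -0.06 and -0.14. Leaving out single samples gave -0.12 (without aged 4) to -0.03 (without young 8) at the brightest probe, -0.13 (without aged 3) to 0.07 (without young 7) at the second and -0.06 without young 2 at the third. A difference in Lss was not detectable at this signal.

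**Figure D2:**
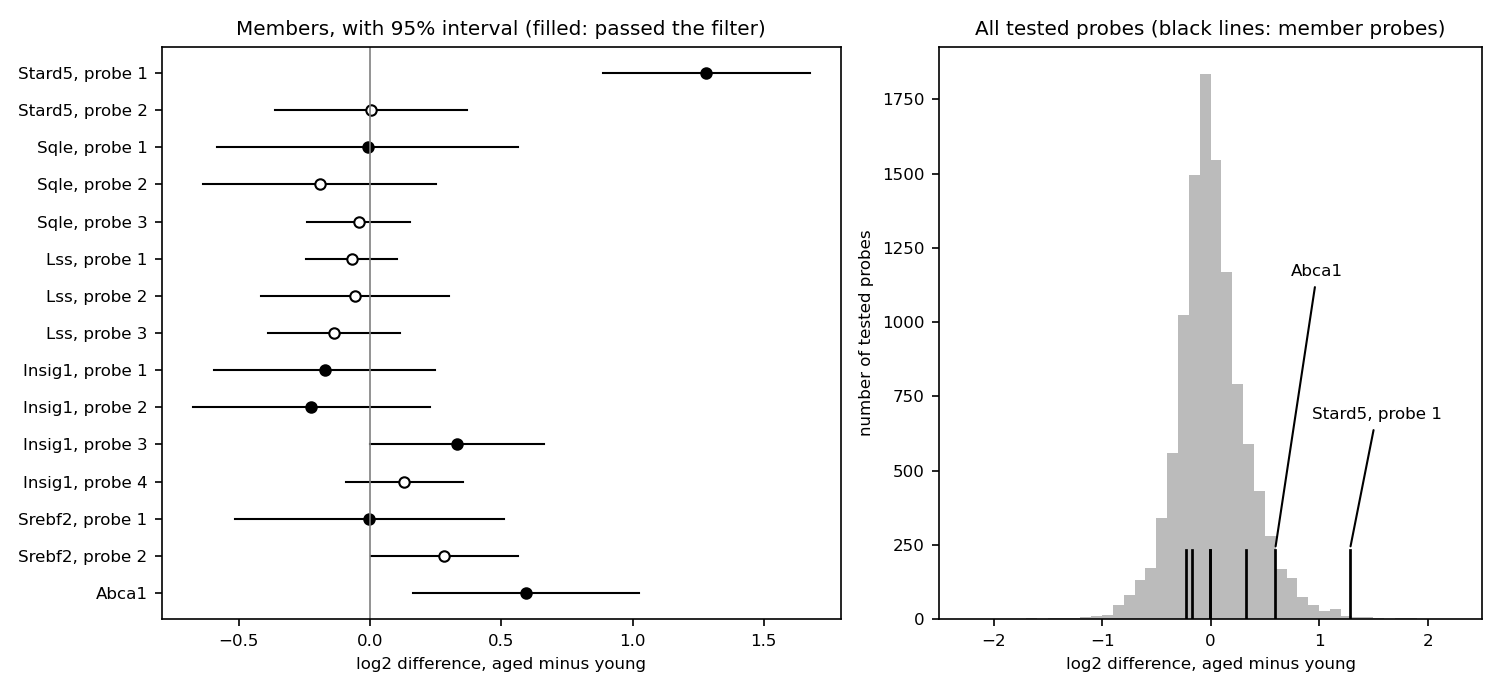
Left, the aged minus young difference in log2 signal of the 15 member probes with its 95% interval, filled where the probe passed the filter. Right, the number of all 11073 tested probes at each difference, with the 7 tested member probes as black lines. Stard5 probe 1 (1.28) lies in the right tail, Abca1 (0.59) on the right shoulder, and the tested probes of Sqle, Insig1 and Srebf2 between -0.22 and 0.33.

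SREBP-2 raises the transcription of Insig1, Sqle, Lss and its own gene, so whether the members varied together from sample to sample was examined within each age, which the difference between ages does not enter. The brightest tested probe of each gene was used, or the brightest where none was tested, giving 15 pairs of genes and 30 correlations over the 6 aged and the 9 young samples. For Spearman correlation the smallest p that 6 samples allow is 0.00278, so that no single aged pair could have passed after adjustment over 30. That floor does not hold for Pearson correlation. With so few samples the count of calls is no evidence that the genes vary independently. By exact permutation tests, two-sided, 0 of the 30 passed an adjusted p of 0.05, and the smallest adjusted p was 0.5 for Pearson and 0.896 for Spearman correlation. At an unadjusted p under 0.05 there were 2 by Pearson and 0 by Spearman correlation. In each age 7 of the 15 pairs had a positive r, and 5 of 15 pairs had the same sign in both ages.

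Insig1 and Srebf2 had the highest r, 0.884 among the 6 aged samples (exact permutation p = 0.0167, adjusted p = 0.5), with a Spearman rho of 0.714 (exact p = 0.136, adjusted p = 0.896). Aged 4 was the highest in both genes and aged 1, aged 2 and aged 3 were low in both. Without the 2 samples farthest from the median of Insig1, r was 0.698. Among the 9 young samples r was -0.634 (exact permutation p = 0.0628, adjusted p = 0.628) and rho was -0.300 (exact p = 0.437, adjusted p = 0.926). There young 2 combined the highest Srebf2 with the lowest Insig1 value, without young 2 r was -0.203, and without the 2 samples farthest from the Insig1 median it was 0.0544. The difference between the ages was not tested.

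Insig1 and Lss had a positive r in both ages. Among aged samples it was 0.739 (exact permutation p = 0.0861, adjusted p = 0.646) with a rho of 0.657 (exact p = 0.175, adjusted p = 0.896), and r was 0.901 without the 2 samples farthest from the Lss median. Among young samples it was 0.665 (exact permutation p = 0.0470, adjusted p = 0.628) with a rho of 0.483 (exact p = 0.194, adjusted p = 0.896), and r was 0.358 without 2 such samples. Aged 4 and young 8 had the highest values of both genes in their groups, without aged 4 the aged r was 0.0414, and without young 8 the young r was 0.386. Both relations depended on how the arrays were scaled. When the 75th percentile of each array was set equal, r between Insig1 and Srebf2 was 0.12 in aged and 0.22 in young samples, and r between Insig1 and Lss was -0.0019 in aged and -0.24 in young samples.

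**Figure D3:**
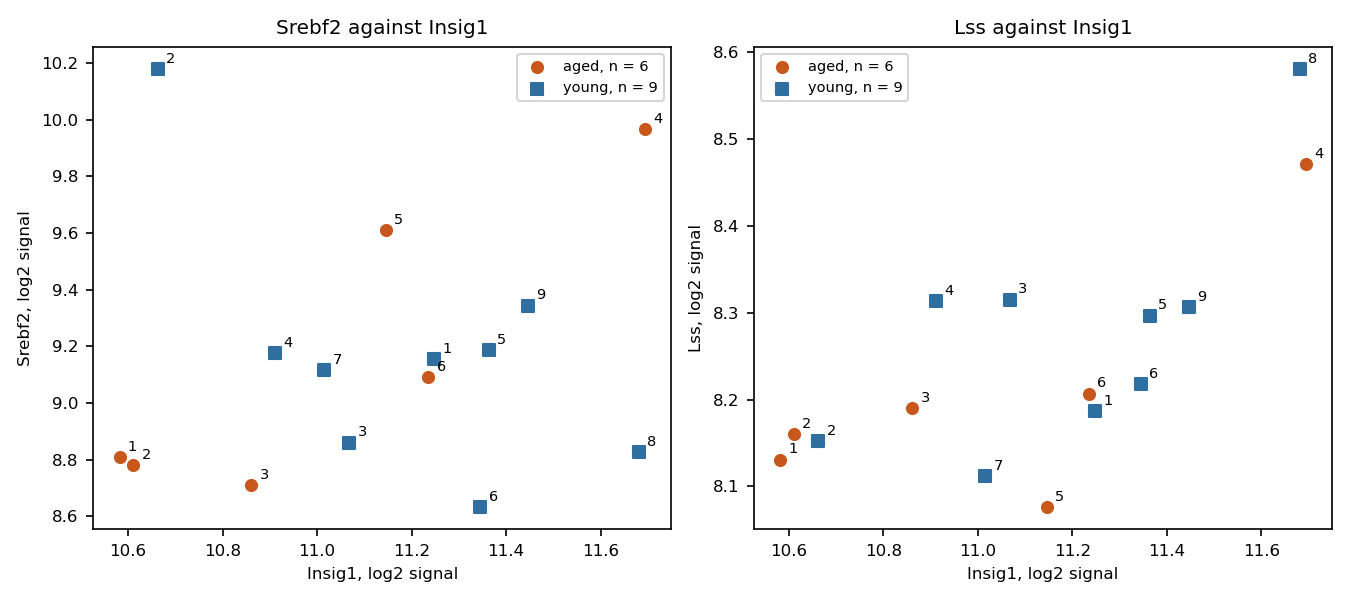
Log2 signal of Insig1 (x axis) against that of Srebf2 (left, y axis) and Lss (right, y axis) in 6 aged samples (circles) and 9 young samples (squares), numbered by sample. For Insig1 and Srebf2 r was 0.884 in aged and -0.634 in young samples, neither passing after adjustment and with the difference between ages not tested, and it was 0.12 in aged and 0.22 in young samples with 75th percentile scaling. Young 2 lies at the top left, and the highest Lss values are those of young 8 and aged 4.

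The rest of the pathway was read from 5 lists of genes in the same fit, 78 genes that are not members. Of these 49 had a probe and 29 had a tested one, and 0 of the 29 passed limma's test at an adjusted p of 0.05 at their brightest tested probe. Aged ASCs had the higher mean for 13 and the lower mean for 16 of them, where 48.2% of all tested probes had the higher aged mean, and the median log2 difference was -0.03, against -0.01 over all tested probes. At an unadjusted p under 0.05 there was 1 higher gene, Syvn1, and 1 lower gene, Stard7, where 14.1% of all tested probes reached that level, 8.81% with a higher and 5.27% with a lower aged mean. The methods' t-test gave 2 genes at an unadjusted p under 0.05, Syvn1 and Nceh1, and 0 after adjustment.

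Of 18 other synthesis enzymes 4 were tested, 1 with a higher and 3 with a lower mean in aged ASCs, and their median difference was -0.05. Lbr, a sterol reductase of the inner nuclear membrane, averaged 10.94 ± 0.54 in aged and 11.14 ± 0.38 in young ASCs, a difference of -0.20 (limma, adjusted p = 0.767), and its second tested probe gave 0.20. Idi1, which makes the isoprene unit dimethylallyl diphosphate, differed by -0.07 (limma, adjusted p = 0.922) and Hsd17b7, a sterol ketone reductase, by 0.11 (limma, adjusted p = 0.914). The 95% interval of all 4 tested enzymes included 0.

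Of 12 genes of SREBP control 9 were tested, 4 higher and 5 lower in mean, with a median difference of -0.04. Syvn1 encodes a ubiquitin ligase of the endoplasmic reticulum best known for the disposal of misfolded proteins. It read 9.04, 10.77, 9.31, 9.56, 10.68 and 10.65 in aged samples 1 to 6 and between 8.61 and 9.81 in young samples. Aged 2, aged 5 and aged 6 lay above every young sample and the other aged samples within the young range, and its difference of 0.73 (SE 0.29) did not pass after adjustment (limma, p = 0.0199, adjusted p = 0.241). Srebf1, the gene of the related factor SREBP-1, differed by 0.16 (limma, adjusted p = 0.805), Mbtps2, the site-2 protease that releases SREBPs, by -0.18 (limma, adjusted p = 0.886), and Erlin1, which takes part in the breakdown of HMG-CoA reductase, by -0.13 (limma, adjusted p = 0.796).

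Uptake and lysosomal export had 4 tested genes of 10, 2 higher and 2 lower in mean, with a median difference of -0.02. Npc2, which hands cholesterol on inside lysosomes, averaged 12.57 ± 0.45 in aged and 12.21 ± 0.46 in young ASCs, a difference of 0.35 (limma, adjusted p = 0.516). Its membrane partner Npc1 differed by 0.14 (limma, adjusted p = 0.892) at its brightest probe, and its other tested probes ranged between -0.21 and 0.41. The lipoprotein receptors Scarb1 and Vldlr differed by -0.45 (limma, adjusted p = 0.545) and -0.18 (limma, adjusted p = 0.719). Of 12 genes of efflux, LXR and esterification other than Abca1, 3 were tested, 1 higher and 2 lower in mean. The transporter Abca7 differed by -0.15 (limma, adjusted p = 0.828), Rxrb, which encodes a partner of LXR, by -0.01, and Nceh1, a cholesteryl ester hydrolase, by 0.21 (limma, adjusted p = 0.427), with all 6 aged samples above the young median.

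The list of START proteins, the family of Stard5, and other sterol carriers had 9 tested genes of 26, 5 higher and 4 lower in mean, and their median difference was 0.12. Most of the tested genes were other carriers. Of the genes with a Stard name, Stard7 and Stard3nl were tested, and Stard6, Stard8 and Stard9 did not pass the filter. Stard3 and Stard4 had no probe under their symbols, so the family of Stard5 was hardly measured here. Stard7, a START protein that carries phosphatidylcholine to mitochondria, averaged 8.84 ± 0.57 in aged and 9.58 ± 0.81 in young ASCs, a difference of -0.74 (SE 0.34) that did not pass after adjustment (limma, p = 0.0405, adjusted p = 0.327). Its young samples ran between 7.99 in young 2 and 11.04 in young 6, and its second tested probe differed by 0.02. Among the oxysterol-binding protein relatives Osbpl8 differed by -0.57 (limma, adjusted p = 0.420), with 0.06 and -0.11 at its other probes, Osbpl9 by 0.30 (limma, adjusted p = 0.546) and Osbpl5 by 0.20 (limma, adjusted p = 0.830). A second probe of Osbpl3, named after its values were seen, had the smallest unadjusted p of the list and averaged 8.52 ± 0.29 in aged and 8.14 ± 0.23 in young ASCs, a difference of 0.37 (limma, p = 0.0110, adjusted p = 0.184), against 0.12 at its brightest probe. A difference between Stard5 and these carriers was not tested.

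**Figure D4:**
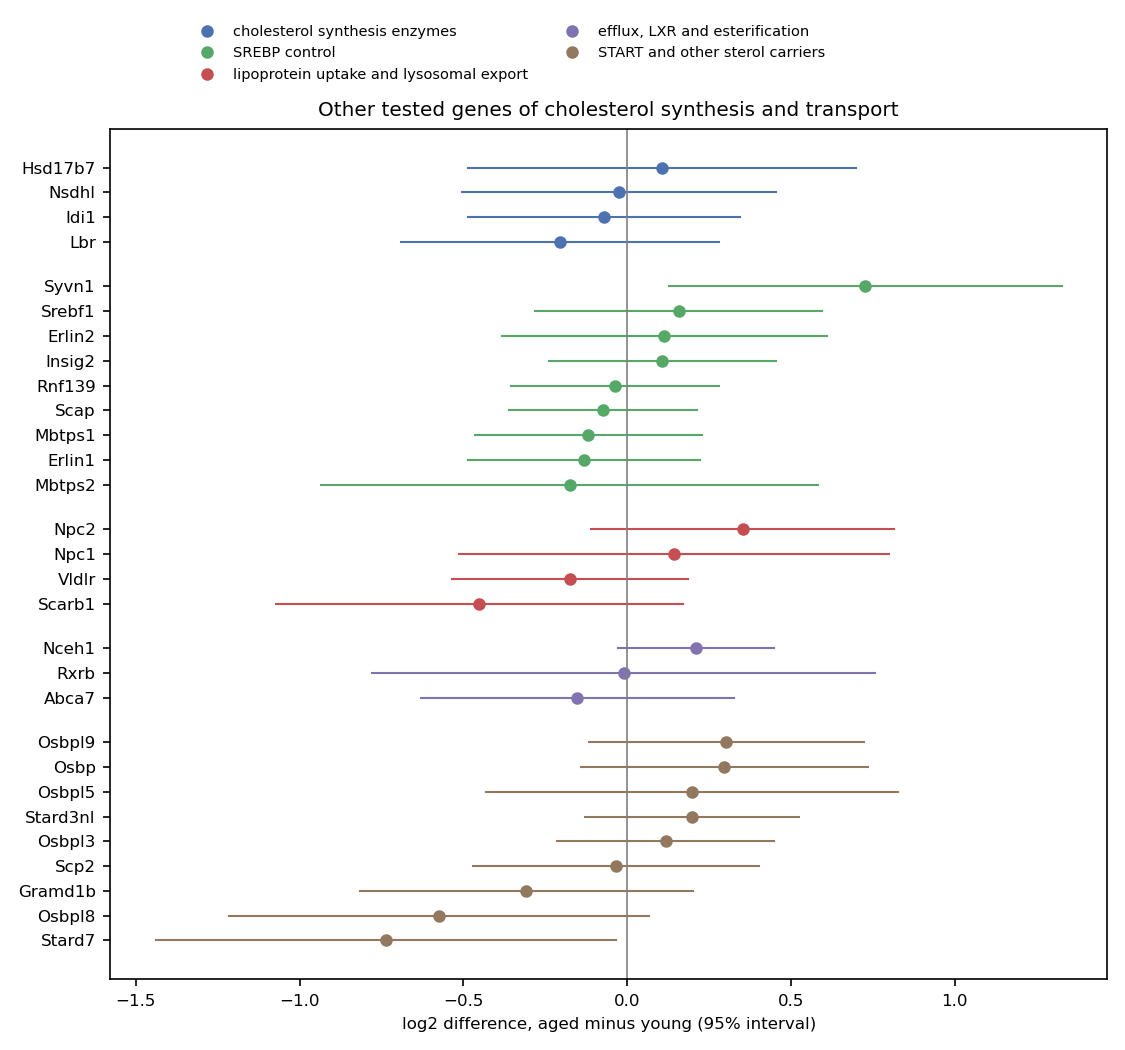
Aged minus young difference in log2 signal of the 29 tested pathway genes that are not members (x axis, points with 95% interval), coloured and grouped by list. Syvn1 (0.73) and Stard7 (-0.74) lie furthest from 0, and 0 of the 29 passed an adjusted p of 0.05.

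The genes whose sample-to-sample pattern was most like that of Stard5 were sought over the 15 deviations from the group means, in which the age difference does not enter, among 8637 other named tested probes. Pearson's r with the brighter Stard5 probe was 0.82 for Myd88, an adaptor of Toll-like receptors, 0.74 for Sirpb1a, 0.74 for Smim7, 0.71 for Rnf11 and 0.71 for Edem2, which acts in the disposal of misfolded glycoproteins. These are descriptions over 15 samples that share a normalization, and the samples within an age may differ in the cells they hold. With arrays scaled to their 75th percentile 0 of these 5 remained among the first 5, Myd88 having rank 20, Edem2 rank 33, Rnf11 rank 41, Smim7 rank 416 and Sirpb1a rank 771. Myd88 itself averaged 8.68 ± 0.38 in aged and 8.65 ± 0.60 in young ASCs, a difference of 0.03 (SE 0.26), against 1.28 (SE 0.19) for Stard5.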

How the data were processed

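Per probe and array (Illumina MouseWG-6 v2) the authors deposited an intensity, the mean bead signal before any normalization, and a detection p-value. As the methods state, 10 ng of total RNA was amplified and biotin labelled. The authors also deposited normalized intensity values for 26509 probes (column medians 286 to 296, linear scale, r of 0.9994 to 0.9995 with the values computed here). The methods state that probes near background in most samples or with little variation were removed, and whether this filter alone chose those probes was not settled.

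Signals of the 17 arrays were quantile normalized with limma 3.58.1 (R 4.3.3), log2 transformed, and averaged over repeat arrays to 15 samples. A probe was tested if no fewer than 7.5 of the 15 samples detected it (p-value under 0.05) and its signal varied 1.2-fold or more. For samples with repeat arrays the smaller detection p-value counted. Ages were compared with lmFit and eBayes (intensity trend), two-sided, Benjamini-Hochberg adjusted over the 11073 tested probes. Differences of probes outside the filter came from the fit over all probes. The annotation named 1 gene for 20873 probes, several for 9 and none for 24399. Probes of a gene are numbered from the brightest, and its main probe is the tested one with the highest mean. Members and lists were chosen with earlier results of these data known. Named were all member probes, per pathway list the 3 genes of smallest p and the 2 brightest, and the 5 genes most like Stard5. Promoter windows came from RefSeq tables, which held 6 of the 8 members. On simulated data of 11073 probes, 200 of them changed, the procedure recovered 18% of log2 changes of 0.5, 86% of 1, 96% of 1.5 and 98% of 2. It made 3 false calls among the unchanged probes. The simulated noise was independent between probes, so shifts that many probes share were not simulated. Alternatives covered scaling, background correction, the deposited normalized values, filters, the replicate number as a block, the methods' t-test, the variance trend and each sample left out. The R package data.table (1.17.8) and pandas 2.3.3 read the files, and figures used matplotlib 3.10.9. Correlations between members were computed with numpy 2.4.6, on ranks from scipy 1.17.1 for Spearman's rho. The other correlations were computed in R.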

Additional observations from a re-analysis of the deposited data

Results flagged for a closer look

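In 8 of the 30 groups of samples (15 probes in 2 ages) 1 sample lay further from the rest of its group than Dixon's criterion allows, a criterion that chance meets in about 1 in 20 groups. Of these groups 7 were at probes outside the filter, where most samples lay at background. Lss contributed 4: aged 4 had 8.47 (nearest sample 8.21) and young 8 had 8.58 (8.31) at its first probe, and aged 3 had 8.44 (8.03) and young 7 had 9.12 (8.39) at its second. At Insig1 probe 4 aged 5 had 8.64 (7.97), at Stard5 probe 2 young 6 had 9.14 (8.27), and at Sqle probe 2 young 7 had 9.60 (8.72). At the tested Srebf2 probe young 2 had 10.18 (9.34), and young 2 also had the lowest mean correlation with its own group over all probes.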

How the results depend on the processing

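At the brighter probe of Stard5, which was chosen on this contrast, the difference ranged between 1.21 and 2.23 on the log2 scale. At its second probe, outside the filter, the difference ranged between -0.09 and 0.13. The other pathway genes gave 0 calls under the alternative scalings, filters, variance models and each sample left out (0 to 0), and 2 by the methods' t-test at its unadjusted threshold. The count of correlated member pairs was 0 in each setting. This count is by Pearson correlation at an adjusted p under 0.05. With 6 aged and 9 young samples it says little of stability, and it is no evidence that the genes vary independently. Of the 15 member probes, 8 of them outside the filter, 6 had a higher aged mean, and 5 to 7 with samples left out. Of all tested probes 48.2% had a higher aged mean. Since this contrast was used to choose the genes, nothing is read from the member count. With 75th percentile scaling 0 of the 5 genes most like Stard5 remained, and the cause was not tested. Over all probes that scaling gave 89 calls, 92.1% of them higher in aged ASCs, against 153 and 76.5%. Calls numbered 40 without aged 3, 67 without aged 6, 72 without aged 1, 87 without aged 4, 317 without aged 2, 100 without young 3 and 255 without young 2, 335 with detection required in all samples of an age, 45 with no filter and 99 with the methods' t-test after adjustment. With the replicate number as a block (replicate block) 55 were called, Stard5 differed by 1.42 at its brighter probe and 0 other pathway genes were called. Same-numbered samples deviated together in replicates 1 and 2 (r of 0.18 and 0.23) and not in replicates 3 to 6 (-0.10 to -0.02). In replicates 1 and 2 the best young match of the aged sample had the same number, and in replicates 3 to 6 it did not. The labels do not say whether equal numbers were processed together, and this was not tested. Low signal limits the 8 member probes outside the filter, and simulated log2 changes of 0.5 were mostly missed.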
